A study of Mus musculus with 4 samples.

Results

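Barcodes whose mitochondrially encoded genes held more than 10% of all unique molecular identifiers (UMIs) made up 815 of the 2413 cell barcodes in a Drop-seq table of mouse cortex at postnatal day 7. Drop-seq captures single cells in droplets with barcoded beads that carry oligo-dT, so each UMI counts 1 captured RNA molecule. The members were chosen by that share alone, and the study's methods leave such barcodes out. WT mice were male Top1 f/f animals without Cre, and Top1 cKO mice were male Top1 f/f animals with NEX-cre +/-, in which Cre is driven by Neurod6 and recombines in excitatory neurons of the cortex and hippocampus but not in other cells. The labels give the strain as C67/Bl6, with 2 samples per genotype. Barcodes labelled WT1 and WT2 match the WT samples, while barcodes labelled KO2 and KO3 cannot be matched to the cKO samples numbered 1 and 2 and were pooled as 1 cKO library.

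The mitochondrial genome encodes subunits of the respiratory chain, the transfer RNAs and the ribosomal RNAs of the organelle, and all other mitochondrial proteins are encoded in the nucleus. A high share of mitochondrial UMIs is widely used to remove barcodes of broken or dying cells, from which cytoplasmic RNA has leaked while RNA enclosed in mitochondria is kept. The share is a ratio, so it can be high because mitochondrial RNA is high or because nuclear-encoded RNA is low. Nuclear-encoded genes are therefore given here relative to non-mitochondrial UMIs.

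The limit was exceeded by 349 of 746 barcodes in WT1 (46.8%, exact 95% binomial interval 43.2 to 50.4), 128 of 415 in WT2 (30.8%, 26.4 to 35.5) and 338 of 1252 in the pooled cKO library (27.0%, 24.6 to 29.6). Within the cKO library the share was 40.3% under label KO2 (250 of 620) and 13.9% under label KO3 (88 of 632). The cKO labels thus differed more from each other than the WT libraries did, and no difference between genotypes can be read from these shares. Such intervals cover counting error only. In total, 920929 UMIs came from barcodes over the limit of WT1, 237516 from those of WT2 and 553121 from those of the cKO library. Of all barcodes, 22 held more than 20000 UMIs each, and 0 of these were over the limit. In WT1 the 12 such barcodes held 52.8% of the UMIs at or under the limit, so each sum that includes them is given without them where it matters. There was 1 cell-barcode sequence that occurred in 2 libraries. No doublet caller was run.

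The mitochondrial UMIs of the members were mostly a single RNA. mt-Rnr2, the RNA of the large mitochondrial ribosomal subunit, held 81.9% of mitochondrial UMIs over the limit in WT1, 76.7% in WT2 and 80.1% in cKO, against 65.6%, 52.1% and 58.7% at or under it. With those 12 left out the WT1 value at or under the limit was 74.5%. When mt-Rnr2 was left out of the numerator, 0 of 2413 barcodes exceeded 10%, and the highest share was 9.70%. The highest share reached by mitochondrial messenger RNAs alone was 7.30%. The table held 10 genes of such messenger RNAs, and mt-Atp6, mt-Atp8 and mt-Nd4l were absent from it. All these shares therefore cover only the mitochondrial RNAs that were counted. The rule used the sum of the mitochondrial RNAs in the table, so their values are a description without a test.

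The table held 26 mitochondrial genes, of which 13 had at least 100 UMIs. All lie on chrM of GRCm38. The bases below are the most adenine-rich stretches of the genes with the most UMIs and of mt-Co1, from the GENCODE M21 transcripts, and they are shown because the beads prime on runs of adenine. The 20 bases with the most adenines in each gene are in capitals, and all 5 genes are on the plus strand.
mt-Rnr2, chrM:1468-1527: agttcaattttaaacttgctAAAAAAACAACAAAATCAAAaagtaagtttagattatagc
mt-Rnr1, chrM:705-764: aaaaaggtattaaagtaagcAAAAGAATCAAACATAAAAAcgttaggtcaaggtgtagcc
mt-Cytb, chrM:14145-14187: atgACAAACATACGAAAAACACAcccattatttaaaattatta
mt-Nd1, chrM:2887-2946: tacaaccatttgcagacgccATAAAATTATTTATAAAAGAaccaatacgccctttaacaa
mt-Co1, chrM:5511-5570: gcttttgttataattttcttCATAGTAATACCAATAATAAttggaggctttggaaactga
The capitals hold 16 adenines in mt-Rnr2, 15 in mt-Rnr1, 13 in mt-Cytb, 12 in mt-Nd1 and 11 in mt-Co1. Of the other messenger RNA genes in the table, mt-Nd2 held 14 (18920 UMIs). mt-Nd4, mt-Nd5 and mt-Co2 held 13 (19041, 17548 and 3 UMIs), mt-Nd3 and mt-Co3 12 (269 and 1) and mt-Nd6 8 (1531). mt-Rnr1 had 26241 UMIs against 46590 for mt-Cytb, so adenines and UMIs did not rank the genes alike. Positions of the reads within these genes were not analysed here, and the part of such stretches in the counts was not tested.

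Per 10000 non-mitochondrial UMIs, the median barcode held 606 UMIs of mt-Rnr2 at or under the limit and 1291 over it in WT1, 324 and 1207 in WT2, and 373 and 1259 in cKO. mt-Rnr1, the RNA of the small mitochondrial ribosomal subunit, followed from 22.3 to 48.9, from 22.7 to 60.3 and from 24.5 to 65.3 in the same order. The mitochondrial messenger RNAs differed far less, from 146 to 201 in WT1, from 237 to 289 in WT2 and from 185 to 218 in cKO. The ratio of the medians over to under was 2.13, 3.72 and 3.38 for mt-Rnr2 and 1.38, 1.22 and 1.18 for the messenger RNAs.

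**Figure D1:**
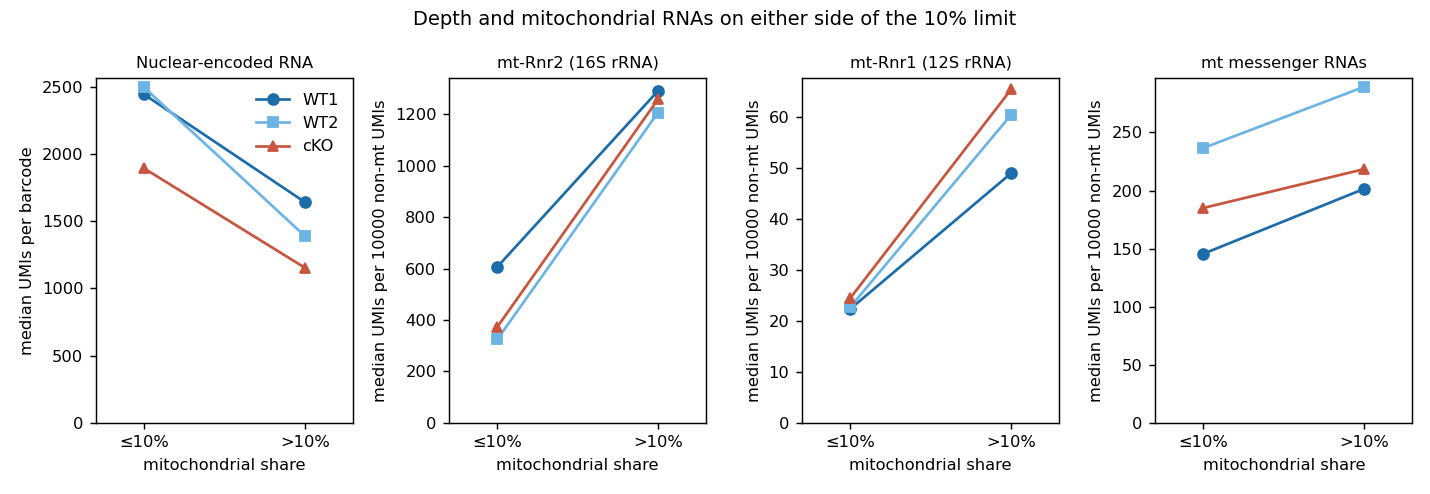
Median per barcode at or under (left points) and over (right points) the 10% limit in WT1, WT2 and the pooled cKO library, for non-mitochondrial UMIs (UMIs per barcode) and for mt-Rnr2, mt-Rnr1 and mitochondrial messenger RNAs (UMIs per 10000 non-mitochondrial UMIs). Nuclear-encoded UMIs fall to medians of 1641, 1389 and 1153, while mt-Rnr2 reaches 1291, 1207 and 1259.

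Among single messenger RNAs, summed over barcodes per 10000 non-mitochondrial UMIs, mt-Cytb (a subunit of complex III) was at 40.6 and 65.9 in WT1, 73.9 and 91.0 in WT2, and 62.2 and 71.9 in cKO, at or under the limit and over it respectively. mt-Nd1, a subunit of complex I, went from 42.7 to 56.5, from 67.3 to 84.6 and from 55.9 to 64.4. mt-Co1, a subunit of complex IV, went from 10.2 to 13.0, from 12.2 to 16.2 and from 11.5 to 14.8. The ratios lay between 1.15 and 1.63 for these 3 genes and were higher for mt-Nd5, at 3.22, 1.75 and 1.86, and for mt-Nd6, at 3.06, 1.91 and 1.94, which are also subunits of complex I. mt-Co2 and mt-Co3 had 3 UMIs and 1 UMI in the whole table. Of the rise in mitochondrial UMIs per non-mitochondrial UMI from one side to the other, mt-Rnr2 made 88.2% in WT1, 88.3% in WT2 and 90.5% in cKO, and the messenger RNAs made 8.51%, 7.18% and 5.06%. With the deepest barcodes left out the mt-Rnr2 values were 87.5%, 88.2% and 90.2%.

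The high share came with fewer nuclear-encoded UMIs as well as with more mitochondrial ones. The median of mitochondrial UMIs per barcode went from 178 to 291 in WT1, from 153 to 239 in WT2 and from 116.5 to 201.5 in cKO. The median of non-mitochondrial UMIs went from 2442 to 1641, from 2494 to 1389 and from 1892 to 1153. The number of messenger RNA UMIs per barcode was not higher over the limit, with medians of 36.0 against 38.0 in WT1, 39.0 against 62.0 in WT2 and 24.5 against 38.0 in cKO. The median number of nuclear-encoded genes detected went from 1514 to 1137, from 1541 to 941.5 and from 1274.5 to 833.5. When every barcode was thinned to 500 non-mitochondrial UMIs, which left out 0 barcodes, the medians were 424 and 422, 425 and 419, and 427 and 422 genes. At this depth most UMIs come from a gene of their own, so the measure has little room to differ. The exact permutation test over 3 paired libraries cannot give a two-sided p below 0.25, and none was run.

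Barcodes just inside and just outside the limit were close in depth. From the 170 barcodes at 9 to 10% to the 135 at 10 to 11%, the median of non-mitochondrial UMIs went from 2051 to 1900 in WT1, from 1576 to 1534 in WT2 and from 1329 to 1249 in cKO. That of mitochondrial UMIs went from 215 to 223, from 165.5 to 183 and from 142 to 149. Across bands of mitochondrial share, the median of mt-Rnr2 per 10000 non-mitochondrial UMIs was 215 below 5%, 531 at 5 to 10%, 1091 at 10 to 15%, 1720 at 15 to 20% and 2568 above 20%. Over the same bands the messenger RNAs went from 110 through 153, 186 and 223 to 293 in WT1, from 197 through 267, 298 and 294 to 180 in WT2 and from 159 through 211, 215 and 195 to 236 in cKO, so they rose band by band in WT1 alone. The 114 barcodes above 20% had a median of 1183.5 non-mitochondrial UMIs, against 2836.5 for the 510 barcodes up to 5%.

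**Figure D2:**
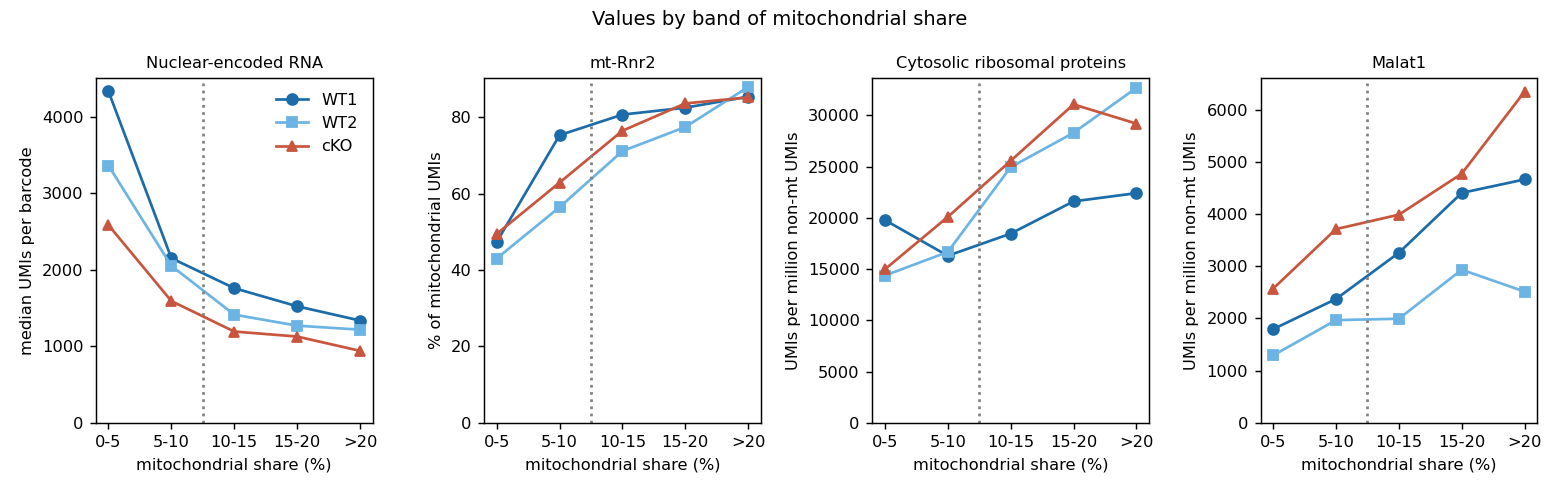
Values by band of mitochondrial share (x axis, %) in WT1, WT2 and cKO: median non-mitochondrial UMIs per barcode, mt-Rnr2 as % of mitochondrial UMIs, and UMIs of cytosolic ribosomal protein genes and of Malat1 per 1000000 non-mitochondrial UMIs, the last pair without barcodes over 20000 UMIs. The dotted line marks the 10% limit. In WT2, ribosomal protein UMIs go from 16660 at 5 to 10% to 24936 at 10 to 15%, the largest step of that curve, and mt-Rnr2 goes from 56.5% to 71.2%. In WT1, ribosomal protein UMIs go from 16294 through 18452 to 21598 over the bands from 5 to 20%. In cKO they go from 20082 through 25553 to 31058, so the largest step at the limit is seen in WT2 only.

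Every major class of cortical cell was found over the limit. Excitatory-marker barcodes were there less often than barcodes as a whole in each library. So were inhibitory-marker barcodes, though with intervals that included the share of all barcodes in WT1 and WT2. A barcode took a class when it held at least 3 UMIs of 1 marker list and more than 2 times those of every other list; it had no class with fewer than 3 marker UMIs, and was mixed otherwise. Excitatory-marker barcodes (markers such as Neurod6, a transcription factor of these neurons) were over the limit in 22 of 90 cases in WT1 (24.4%, exact interval 16 to 34.6), in 4 of 55 in WT2 (7.27%, 2.02 to 17.6) and in 10 of 119 in cKO (8.40%, 4.10 to 14.9). Inhibitory-marker barcodes (Gad1, Gad2 and interneuron genes) were over it in 31.2%, 17.8% and 7.96%. Astrocyte-marker barcodes were over it in 111 of 209 in WT1 (53.1%, 46.1 to 60.0), 25 of 64 in WT2 (39.1%, 27.1 to 52.1) and 93 of 285 in cKO (32.6%, 27.2 to 38.4). The excitatory share lay below the share of all barcodes in each of the 3 libraries, and the astrocyte share lay above it in each, with an interval that included the share of all barcodes in WT1 and WT2.

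The classes of the members themselves were 229 astrocyte-marker, 36 excitatory-marker, 27 inhibitory-marker, 11 vascular and meningeal, 4 microglia and macrophage, 3 erythroid and 2 oligodendrocyte-lineage barcodes. A further 423 were mixed and 80 had no class. Among the mixed members, 154 had astrocyte and inhibitory markers as their leading lists and 137 had astrocyte and excitatory markers. RNA of more than 1 cell type in a droplet can come from several cells or from free RNA, and which it was here was not tested. The astrocyte list was led by Fabp7, which radial glia also express, at 2128, 1901 and 1797 counts per 1000000 non-mitochondrial UMIs (CPM) over the limit, against 281, 89.1 and 237 for the more restricted Aqp4.

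Depth bears on these classes, since members held fewer UMIs. In barcodes thinned to 500 non-mitochondrial UMIs the excitatory shares over the limit were 26.7%, 12% and 9.52% and the astrocyte shares 54.7%, 41.4% and 30.8%. The inhibitory shares became 46.7%, 26.9% and 14.3%, and that of WT1, on 15 barcodes, was then close to the 46.8% of all WT1 barcodes. Barcodes with no class were over the limit in 52.6% of 152 cases; thinning left 1493 of the 2413 barcodes without a class, so its value for them is not comparable. Marker UMIs were also taken relative to each library's own level of the list, an alternative chosen after seeing the data. The excitatory shares were then 32.7%, 14.7% and 19.4%, the inhibitory shares 42.9%, 25% and 12.2% and the astrocyte shares 60.8%, 9.52% and 28.9%. The excitatory share thus stayed below that of all barcodes in each of the 3 libraries under each of these rules, and the astrocyte share did not stay above it. Under the relative rule, however, the exact interval of the excitatory share included the share of all barcodes in each library. These intervals were 20.3 to 47.1 in WT1, 4.95 to 31.1 in WT2 and 12.1 to 28.6 in cKO. After thinning the WT2 interval, on 25 barcodes, also included it, at 2.55 to 31.2. Within cKO the relative rule gave excitatory shares of 47.1% under label KO2 and 4.69% under label KO3, the former above the 40.3% of all KO2 barcodes. A total of 244 of the 815 members lay within 1 UMI of the ratio rule.

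**Figure D3:**
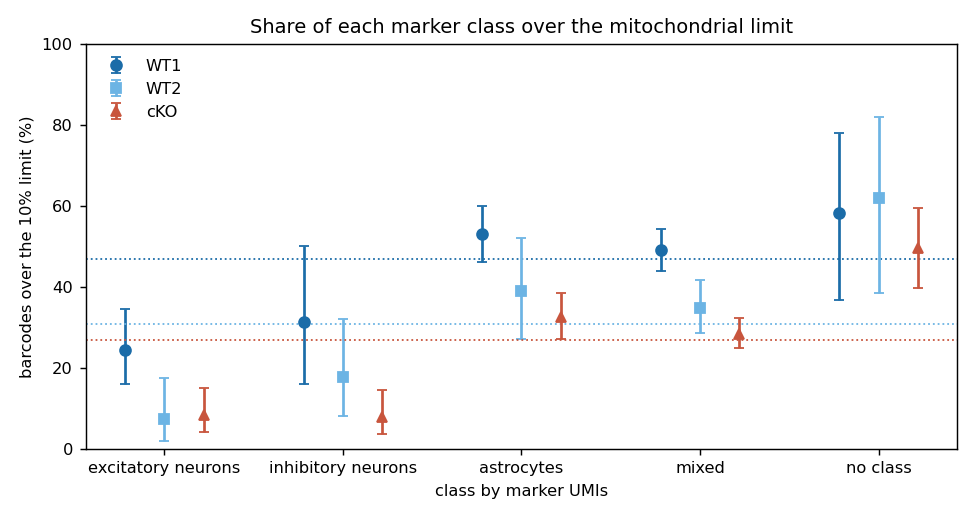
Percentage of barcodes over the 10% limit (y axis) among excitatory-marker, inhibitory-marker, astrocyte-marker, mixed and unclassed barcodes in WT1, WT2 and cKO, with exact 95% binomial intervals; dotted lines give the share of all barcodes in each library. Excitatory-marker points lie at 24.4%, 7.27% and 8.40%, below the dotted line of their library.

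Nuclear-encoded genes were compared between the sides in sums of UMIs, 1 sum per side and library, with the library as a block. Of 9492 genes tested by edgeR's quasi-likelihood test at an adjusted p of 0.05, 12 were higher and 8 lower over the limit (0.211% called in either direction), and 961 (10.1%) had an unadjusted p under 0.05. In sums over barcodes, fewer cells of a type and less RNA per cell cannot be told apart. Of the 20 genes, 18 moved in 1 direction in all 3 libraries. Col1a1 and Col1a2, collagen genes of meningeal and perivascular fibroblasts, were higher in WT1 and cKO and lower in WT2, and fell outside the rule for named genes for that reason.

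Hist1h1e, which encodes a linker histone, rose most among these, by 1.81 ± 0.271 (SE) on the log2 scale (adjusted p = 2.4e-06 by edgeR's quasi-likelihood test with Benjamini-Hochberg adjustment, as for the genes that follow). Its level in CPM was 15.3 at or under the limit and 59.4 over it in WT1, 21.4 and 79.2 in WT2, and 24.1 and 69.9 in cKO, so the sides did not overlap. These levels rest on 42 and 47, 21 and 16, and 69 and 33 UMIs. The gene lies at chr13:23620629-23622558 on the minus strand (GRCm38) and overlaps Hist1h2be on the same strand, and the counts cannot be assigned to either alone. Among other histone genes, chosen after their values were seen, Hist1h1c was at -0.43 and Hist1h2bc at 0.29, neither past the test.

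Map2, which encodes a microtubule-associated protein of dendrites, was at 807 and 1634 CPM at or under and over the limit in WT1, 1061 and 1847 in WT2, and 1189 and 1839 in cKO. It rose by 0.86 ± 0.182 (adjusted p = 0.0073), with every level over the limit above every level under it. Of 10 pan-neuronal markers Map2 alone passed, and Snap25 and Stmn2 were at 0.02 and 0.04. Gap43, a growth cone protein, did not pass. In sums over all barcodes it was higher over the limit in 3 of 3 libraries. Its levels were 4197 and 5004 CPM in WT1, 4393 and 5292 in WT2, and 3932 and 4128 in cKO. With the deepest barcodes left out, Gap43 was lower over the limit in WT1, at 5252 and 5004 CPM. It was then still higher in WT2, at 4466 and 5292, and nearly level in cKO, at 4083 and 4128. Map2 lies at chr1:66175273-66442583, plus strand.

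Akap12, a scaffold protein that binds protein kinase A, was at 71.5 and 200 in WT1, 116 and 158 in WT2, and 86.1 and 193 in cKO, a rise of 1.14 ± 0.219 (adjusted p = 0.0016). Shc4, a signalling adaptor, went from 29.9 to 74.5, from 58.0 to 144 and from 49.3 to 91.1 and rose by 1.2 ± 0.242 (adjusted p = 0.0029). Its levels over the limit were above all levels under it. Shc4 (chr2:125627447-125724148, minus strand) overlaps the protein-coding gene Eid1 on the other strand, and the counting is not stated to use strand.

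Malat1, an abundant noncoding RNA kept in the nucleus, went from 1224 to 3606 CPM in WT1, from 1667 to 2282 in WT2 and from 2911 to 4433 in cKO. The rise was 0.92 ± 0.182 (adjusted p = 0.0023), was largest in WT1, and left the WT2 level over the limit below the cKO level under it. Without barcodes over 20000 UMIs it was 0.56. The other 4 nuclear-retained RNAs tested (of 7 in the table) did not pass, and the median of the 5 was 0.27.

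Ybx1, which encodes an RNA-binding protein, rose by 0.83 ± 0.182, and Zbtb20, a transcription factor of astrocytes and hippocampal neurons, by 0.87 ± 0.203. Rps24, a protein of the small cytosolic ribosomal subunit, rose by 0.80 ± 0.195, with 0.22 in WT1 against 1.25 in WT2 and 0.95 in cKO. 4922501C03Rik, an older symbol of Cep162, and Gm20417 rose by 1.10 and 1.51, on 268 and 121 UMIs.

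**Figure D4:**
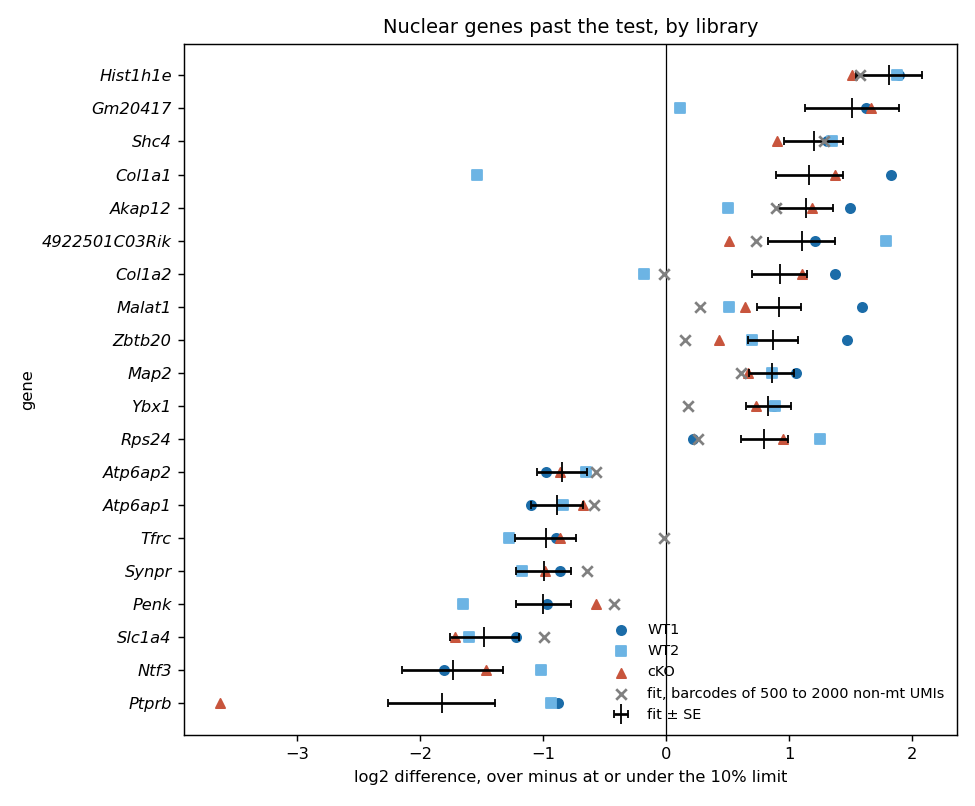
Log2 difference (x axis), over minus at or under the 10% limit, of the 20 nuclear genes past the test: coloured points are WT1, WT2 and cKO, black bars the fit with its SE, and grey crosses the fit over barcodes of 500 to 2000 non-mitochondrial UMIs, where the gene was tested. Hist1h1e, Shc4, Akap12 and Map2 keep values of 1.58, 1.28, 0.89 and 0.61 there.

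Among the genes that were lower, Slc1a4, a transporter of neutral amino acids, was at 101 and 41.7 CPM in WT1, 81.4 and 24.8 in WT2, and 74.9 and 21.2 in cKO. It fell by 1.48 on the log2 scale (SE 0.283, adjusted p = 0.0016), with no overlap of the sides. Atp6ap2 and Atp6ap1, accessory subunits of the vacuolar proton pump that acidifies lysosomes and synaptic vesicles, fell by 0.85 and 0.89, and each was lower over the limit in 3 of 3 libraries. Atp6ap2 was at 622 and 307, 479 and 292, and 474 and 254 CPM.

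Synpr, a synaptic vesicle protein, fell by 1.00 and the opioid precursor Penk by 1.00; Penk is also a marker of striatal projection neurons. Tfrc, the transferrin receptor, fell by 0.98 and Ntf3, a neurotrophin, by 1.74. Ptprb, a phosphatase of endothelial cells, fell by 1.82, but rested on 5, 5 and 1 UMIs over the limit. Without barcodes over 20000 UMIs, Ptprb, Penk, Tfrc, Gm20417 and 4922501C03Rik no longer passed, with adjusted p of 0.150, 0.154, 0.155, 0.115 and 0.140 by edgeR's test, while the other 15 did.

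The number of calls depended on which libraries and barcodes entered the sums. Leaving out the 22 barcodes over 20000 UMIs, of which 12 were in WT1, 1 in WT2 and 9 in cKO, gave 59 genes higher and 24 lower of 9363 (0.886% called), and leaving out WT1 gave 365 and 157 of 9102 (5.74%). Leaving out the cKO library gave 1 call of 9515 (0.0105%; 377 at an unadjusted p under 0.05 by edgeR), and leaving out WT2 gave 15 higher and 5 lower of 11344 (0.176%). The direction of the 20 genes was the same in every one of these fits. These fits reuse the counts that chose the genes, most of which moved 1 way in each library. The shared direction is therefore no separate support. With all UMIs as the library size, mitochondrial ones included, the median of all genes was -0.19, and 4 genes were higher and 58 lower of 9546 (0.649% called).

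The medians of the lists for cytosolic ribosomes and oxidative phosphorylation lay above 0 in WT2 and cKO and near 0 in WT1, and few of their genes passed the test. Of 68 cytosolic ribosomal protein genes tested, 65 were above 0 and 1 (Rps24) passed the test. Their median was 0.53 in the fit, with 0.10 in WT1, 0.88 in WT2 and 0.75 in cKO, beside 0.005 for all genes tested. Rplp1 was at 0.54, Rpl13a at 0.52 and Rpl4 at 0.49, none past the test. The cKO median mixes labels KO2 and KO3, which gave unequal parts of the sums on each side. In barcodes of 5 to 10% mitochondrial share, without those over 20000 UMIs, the list was at 25376 CPM under KO2 and 16027 under KO3. When barcodes over 20000 UMIs were left out 18 of 68 passed, all higher, and without WT1 46 of 67 did. Among all genes tested, 0.886% and 5.74% were called in these fits, in either direction.

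For the nuclear subunits of the respiratory chain, 0 of 37 in complex I, 0 of 9 in complex III, 0 of 11 in complex IV and 0 of 14 in ATP synthase passed. Their medians were 0.37, 0.28, 0.43 and 0.46. In WT1 the medians were -0.17, -0.11, -0.07 and -0.09, against 0.73, 0.59, 0.71 and 0.81 in WT2 and 0.58, 0.52, 0.68 and 0.62 in cKO. With barcodes over 20000 UMIs left out the WT1 medians were 0.05, 0.09, 0.12 and 0.03, and 1, 1, 3 and 1 genes rose. Uqcrq, a small subunit of complex III, was at 0.64 and Cox6b1, of complex IV, at 0.60 in the fit. Without WT1, 26 of 37, 5 of 9, 10 of 11 and 13 of 14 rose in these lists. The shares called among all genes were 0.886% without the deepest barcodes and 5.74% without WT1. The fit without WT1 rests on WT2 and the cKO library, whose sums pool labels KO2 and KO3 in unequal parts.

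The list medians were smaller in a window of depth. Among barcodes of 500 to 2000 non-mitochondrial UMIs (637 members and 745 others), the medians were 0.09 for cytosolic ribosomal proteins and 0.02, 0.04, 0.02 and 0.05 for complexes I, III and IV and ATP synthase, and 0 genes of these 5 lists passed. Depth was closer but not equal there, with median non-mitochondrial UMIs of 1438 against 1562 in WT1, 1336 against 1610 in WT2 and 1110 against 1349 in cKO. In that window 8 of 5696 genes rose (0.14% called) and 0 fell (373 had an unadjusted p under 0.05). They were Hist1h1e, Shc4, Akap12, Map2 and 4 genes outside the naming rule, chosen after their values were seen: Apc (0.60) and Tulp4 (0.70), and Ank2 and Hdgfrp3 (0.68 each). Apc binds microtubules and beta-catenin, and Ank2 links membrane proteins to the spectrin skeleton. Each of the 8 was higher in 3 of 3 libraries.

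With barcodes thinned to 500 UMIs instead, 24 genes rose and 21 fell of 3959 (1.14% called). Map2, Shc4, Akap12, Malat1 and Rps24 were among the former and Atp6ap1, Atp6ap2 and Synpr among the latter, while Hist1h1e was too low to be tested. Thinning evens out depth per barcode but keeps every barcode, and the ribosomal median was 0.37 there.

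The mitochondrial messenger RNAs sorted barcodes in another way. When the same number of barcodes per library was taken by the share of messenger RNAs, chosen after seeing the data, 379 of the 815 barcodes were the same. They were 59.9% of the members in WT1, 36.7% in WT2 and 36.4% in cKO, where each side holds 46.8%, 30.8% and 27.0% of the library. The list medians then turned, to -0.35 for cytosolic ribosomal proteins and -0.40, -0.33, -0.43 and -0.37 for complexes I, III and IV and ATP synthase, with WT1, WT2 and cKO each below 0. Of 10288 genes, 18 rose and 1 fell (0.185% called), among them Akap12, Zbtb20, Col1a1 and Col1a2. The counts share the same barcodes on either ranking, so this is a description of how the choice of RNA sets the contrast.

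**Figure D5:**
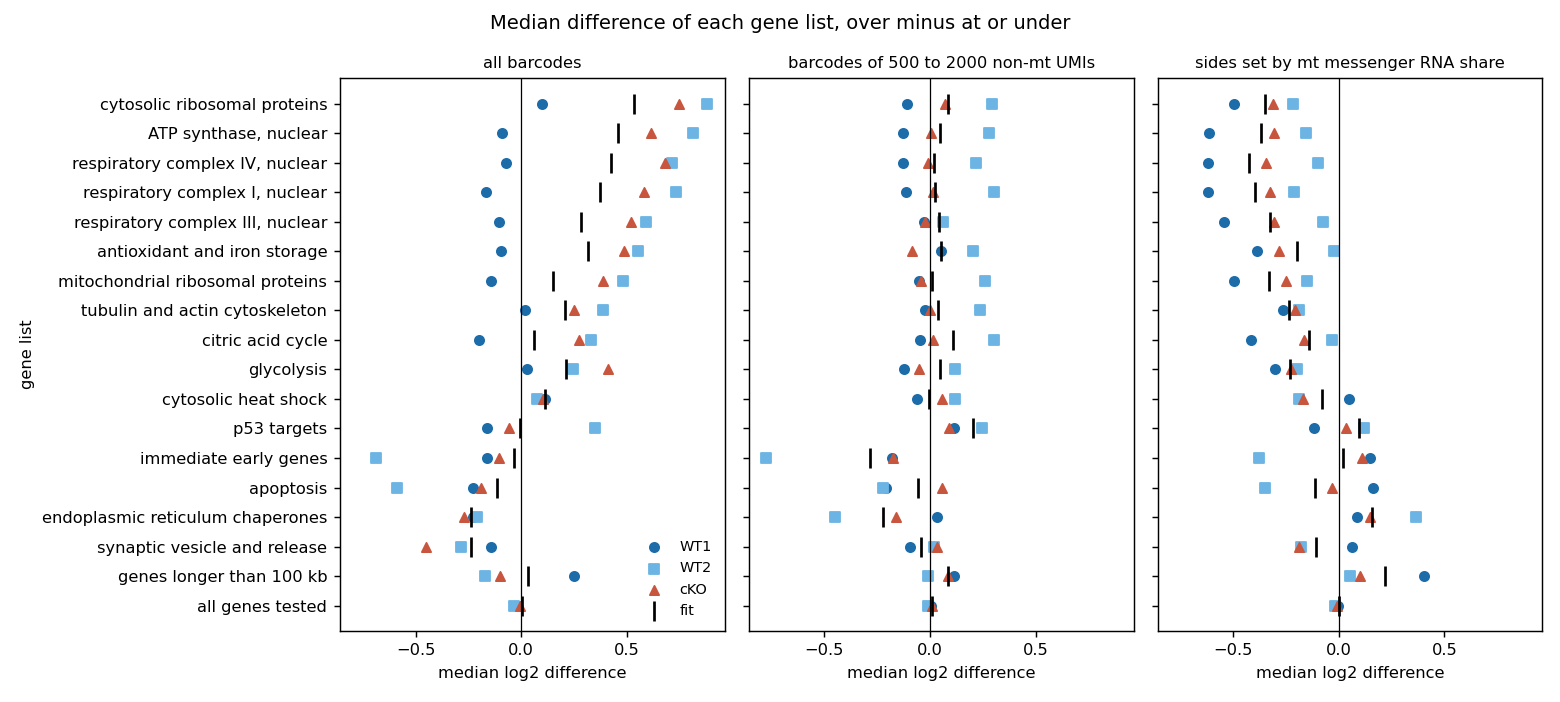
Median log2 difference (x axis), over minus at or under, of the genes of each list in WT1, WT2, cKO and the fit (black bars), for all barcodes, for barcodes of 500 to 2000 non-mitochondrial UMIs, and for sides set by the share of mitochondrial messenger RNAs. In the fit, the ribosomal and respiratory lists reach 0.53 at most in the first panel. Their fit values lie from 0.02 to 0.09 in the middle one and from -0.43 to -0.33 in the last. In the first panel the WT2 and cKO points of these lists lie above the fit.

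Lists of cell damage and stress held 0 calls in the fit over all barcodes. With 0.211% of all genes called, a list of this size would be likely to hold none, so the counts say nothing particular to these lists. Of the p53 targets 0 of 10 tested passed (median -0.01), of the apoptosis genes 0 of 11 (-0.11), of the immediate early genes 0 of 7 (-0.03), of the cytosolic heat shock genes 0 of 6 (0.11) and of the mitochondrial chaperone and integrated stress response genes 0 of 11 (0.02). Endoplasmic reticulum chaperones had a median of -0.24, between -0.27 and -0.21 in the 3 libraries, with 9 of 10 below 0 and 0 calls; Calr was at -0.38 and Hspa5 at -0.22. Synaptic vesicle and release genes had 12 of 14 below 0 and a median of -0.24, with Syt1, a calcium sensor of vesicle release, at -0.23. Without barcodes over 20000 UMIs Syt1 and Syn2 fell, by 0.46 and 0.56. Antioxidant and iron storage genes had a median of 0.31, with Fth1, the ferritin heavy chain, at 0.35 and 0 of 15 called. Medians were 0.15 for 72 mitochondrial ribosomal proteins, 0.21 for glycolysis, 0.06 for the citric acid cycle, 0.21 for tubulin and actin genes and -0.04 for mitochondrial transcription and RNA handling, each with 0 calls. The 4 genes of complex II were at a median of -0.01.

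Genes longer than 100 kb, a class that the loss of Top1 is known to affect, had a median of 0.03 over 1586 genes, of which 2 rose and 2 fell, a share close to the 0.211% called among all genes. By library it was 0.25 in WT1, -0.17 in WT2 and -0.10 in cKO, and without barcodes over 20000 UMIs the median of the fit was -0.06.

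The marker lists of cell classes moved by unequal amounts. Without barcodes over 20000 UMIs, the astrocyte list went from 3008 to 4501 CPM in WT1, from 3202 to 3495 in WT2 and from 3145 to 4168 in cKO. The excitatory list went from 1705 to 1478, from 1619 to 1188 and from 1356 to 1280. Both lists moved in 1 direction in the 3 libraries. In the fit over all barcodes 0 of 12 astrocyte, 0 of 10 excitatory and 0 of 13 inhibitory genes passed, and in that without the deepest barcodes Fabp7 and Gfap rose, by 0.62 and 1.13, Gfap with -0.83 in WT2. Of 11 vascular and meningeal genes 2 rose (Col1a1 and Col1a2), and 5 did without the deepest barcodes, where the summed list went from 291 to 763, from 640 to 678 and from 692 to 928. Among all genes, 0.211% and 0.886% were called in these fits. The oligodendrocyte list went from 333 to 468 in WT1, from 278 to 490 in WT2 and from 487 to 409 in cKO. The erythroid list, which marks blood, went from 569 to 427 in WT1, from 553 to 866 in WT2 and from 1316 to 1229 in cKO. The part of these cells in the other results was not tested.

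Within single classes few genes could be called. In excitatory-marker barcodes 0 of 3643 genes passed edgeR's test, with 114 at an unadjusted p under 0.05, and DESeq2 also called 0, with 35. On simulated counts with 2-fold changes, drawn at the depths and spread of these sums, the test recovered 0.562% of changed genes there. It recovered 14.0% in astrocyte-marker barcodes, 42.5% in mixed barcodes and 54.2% over all barcodes. The lack of calls in excitatory-marker barcodes thus says little about changes of that size. Inhba was at 1.65, on 23, 1 and 11 UMIs over the limit in WT1, WT2 and cKO. Srcin1 had 0, 0 and 2 UMIs over the limit and 35, 18 and 46 at or under it, too few for a fold change.

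In inhibitory-marker barcodes 0 of 1341 genes passed (49 at an unadjusted p under 0.05), and Rgs2 had 0, 0 and 2 UMIs over the limit and 20, 78 and 104 at or under it (adjusted p = 0.11). In astrocyte-marker barcodes 1 of 3822 genes passed (0.0262% called): Ptgds, a prostaglandin synthase of the meninges and choroid plexus, fell by 1.46, from 904 to 428 CPM in WT1, 5214 to 568 in WT2 and 1031 to 779 in cKO. In barcodes with no class 1 of 264 passed (0.379% called): Enc1, an actin-binding protein of neurons, fell by 1.39.

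The mixed barcodes, 423 over and 744 at or under the limit, gave a separate comparison that was added after seeing the data, on barcodes that also enter the one over all barcodes. Here 6 of 7134 genes rose and 4 fell (0.14% called). Hist1h1e rose by 2.10, Akap12 by 1.46, Malat1 by 1.15, Map2 by 0.93, Ybx1 by 0.82 and Ncl, which encodes the nucleolar protein nucleolin, by 0.76. Slc1a4 fell by 1.85, Penk by 1.2, Tmem35 by 1.03 and Atp6ap2 by 1.01. In each of the 3 libraries all 10 kept these signs.

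Top1 was lower under both cKO labels than in the WT libraries on either side of the limit. Over it, Top1 was at 641 CPM in WT1 (exact Poisson interval 586 to 699), 688 in WT2 (579 to 813) and 311 in cKO (263 to 366), with 276 under label KO2 and 376 under KO3. At or under the limit it was at 436, 566 and 308. Whether the counted 3' ends lie in the deleted part of Top1 is not given in the sources used here. Neurod6, the driver gene of the Cre, was at 529, 455 and 322 CPM over the limit. Markers of excitatory neurons did not all share this order. Slc17a7, a vesicular glutamate transporter, was at 29.1, 39.6 and 23.3, on only 23, 8 and 11 UMIs. Neurod2 was at 265, 248 and 356. The summed excitatory list was at 1478, 1188 and 1280, with cKO between the WT libraries. The pooled cKO library has no replicate, and no test between genotypes was made.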

How the data were processed

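Drop-seq was run on cortical cells from 2 samples of each genotype. The authors aligned reads with STAR to mm10 using the Drop-seq Toolkit and deposited UMI counts per gene (19092) and barcode (2413), not normalized; the annotation is not given in the sources used here. Columns of per-sample values not used: 0. Members, gene lists and tests were chosen with earlier results of these data known. UMIs were summed per library and side of the 10% limit after removing mt- genes, filtered with filterByExpr, scaled by TMM and tested with edgeR 4.0.16 (R 4.3.3; quasi-likelihood, library as block, 6 sums, 2 residual degrees of freedom, Benjamini-Hochberg). Because the side is compared within each library, pairing comes from the libraries themselves, but the cKO sums pool labels KO2 and KO3 in unequal parts. Label KO2 gave 304523 of the 471952 non-mitochondrial cKO UMIs over the limit and 969230 of the 2857375 at or under it. The cKO contrast thus mixes side with label, and their parts cannot be told apart in the pooled sums. Genes of the marker lists were left out of the tests within classes. DESeq2 1.42.0 was an alternative. CPM values carry no TMM factors. Named genes were the 12 largest rises and falls past the test with at least 100 UMIs and 1 direction in 3 libraries, list members with the most UMIs, mt- genes and Top1. Scripts were tested on simulated data. Lengths came from GENCODE M21 for 18754 of 19066 nuclear genes. P-values rest on how the difference between the sides varied over these 3 libraries, with the estimate of spread moderated across genes. The spread between the cKO samples does not enter them, since these were pooled.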

Additional observations from a re-analysis of the deposited data

How the results depend on the processing

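The limits are those of 3 libraries, of which 1 pools both cKO labels, and of members that hold fewer UMIs than the other barcodes. Free RNA and doublets enter the sums, and their part was not tested. Alternatives that set sides by mitochondrial messenger RNAs, left mt-Rnr2 out, took classes relative to the library or tested mixed barcodes were chosen after seeing the data.

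Over all barcodes, the 20 calls became 12 with DESeq2, 62 with all UMIs as the library size, 65 with KO2 and KO3 as 2 libraries, 83 without barcodes over 20000 UMIs, 45 in thinned barcodes and 8 in the depth window. Of the 20, these shared 6, 12, 19, 15, 9 and 4; thinning and the window tested 14 and 16 of the 20, and DESeq2 gave no adjusted p for 8833 of 9492 genes. They became 13, 8 and 0 at limits of 15%, 20% and 5%. At 5%, 561 genes had an unadjusted p under 0.05 by edgeR. Without the library block, which pairs the sides of each library, 1 gene was called. Without the pooled cKO sample 1 was called, and leaving out 1 WT library gave 20 to 522, the latter without WT1; 9 of the 20 without WT2 were shared. The cause was not tested.

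The excitatory count of 0 became 10 with classes relative to the library and 10 at a limit of 5%. Leaving out 1 WT library gave 0 to 1 call in inhibitory-marker, 0 to 2 in astrocyte-marker, 0 to 1 in unclassed and 5 to 236 in mixed barcodes, and leaving out cKO gave 0, 0, 0 and 0. The calls in astrocyte-marker and unclassed barcodes became 0 and 0 with DESeq2 size factors.

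At limits of 5%, 15% and 20% the share over the limit was 78.9%, 12.5% and 4.72% of all, 61.0%, 2.65% and 1.14% of excitatory-marker, 83.2%, 17.0% and 6.45% of astrocyte-marker, 91.4%, 25.7% and 13.8% of unclassed and 82.7%, 12.5% and 4.20% of mixed barcodes. At 10%, it was 0% of all with mt-Rnr2 left out (1.66% at a limit of 5%) and 32.7% of the 1493 barcodes unclassed after thinning. The mt-Rnr2 part of the mitochondrial excess was 84.8% at 5% and 91.0% at 20%. With sides set by messenger RNAs Rps24 and Ybx1 turned to -0.48 and -0.20. Of the other values of named genes under an alternative, 151 kept their direction and side of the threshold and 162 kept their direction only.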
